A study of Sus scrofa with 11 samples.

Results

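The vascular endothelial growth factor (VEGF) ligands VEGFA and VEGFC and the receptors KDR and FLT1 were measured in the ischemic left ventricle of pigs. Every probe set whose single gene symbol in the platform annotation was VEGFA, VEGFC, KDR or FLT1 was taken, whatever its values. This gave 6 of the 27558 probe sets of the array, 2 for VEGFA, 2 for KDR and 1 each for VEGFC and FLT1. The pigs, intact male Yorkshire swine, were fed for 12 weeks either normal chow (ND) or a diet high in fat (HFD). All of them carried an ameroid constrictor, a ring that slowly closes the vessel, on the left circumflex coronary artery, so no group here had an unobstructed artery. The muscle of the ischemic territory then received vehicle or extracellular vesicles (EV), which are small membrane sacs shed by cells, and was collected 5 weeks later. The groups were ND with vehicle (3 arrays, called ND), ND with EV (3, ND+EV), HFD with vehicle (2, HFD) and HFD with EV (3, HFD+EV). The titles call the arrays of a group biological replicates, and no label ties an array to a named animal, so p-values measure the spread between these arrays. The sources used here do not give the cells that the EV came from or the age of the pigs. The series asks how the high fat diet bears on EV-driven growth of vessels.

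VEGF ligands are secreted dimers that bind receptor tyrosine kinases on endothelial cells and so direct the growth, permeability and survival of vessels. VEGFA is made by many cells of the heart, cardiomyocytes among them, and is switched on by low oxygen through the HIF factors. KDR (VEGF receptor 2) carries most of its growth signal. FLT1 (VEGF receptor 1) binds VEGFA tightly and signals weakly, so that it acts largely as a trap. VEGFC, best known for the growth of lymphatic vessels through the receptor FLT4, can also bind KDR.

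All values are the deposited log2 signals, and 1 unit is a doubling. Probe sets differ in how well they hybridise, so levels were compared between arrays and never between probe sets. All 6 probe sets had a mean signal above the filter on low signal (3.63), and the lower of the 2 KDR probe sets cleared it by 0.15 only. Over all probe sets ND replicates 1 and 3 were the least like the rest, with a mean correlation to the other arrays of 0.946 for replicate 1 and 0.952 for replicate 3, where every other array had 0.965 to 0.972. Markers of ventricular cardiomyocytes were high on every array (mean log2 signal of 8 of 12 listed genes 10.42 to 10.93), and 10 of 16 markers of blood vessel endothelium were measured, PECAM1, VWF, CLDN5 and TEK among them. In a piece of tissue, fewer cells of a type and less RNA per cell cannot be told apart.

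VEGFA was highest in ND, the hearts on the normal diet that received vehicle. With probe set 15310081, ND replicates 1, 2 and 3 had log2 signals of 10.52, 9.87 and 9.86. The ND+EV arrays had 9.72, 9.32 and 9.28. The HFD arrays had 9.66 and 9.55, and the HFD+EV arrays 9.51, 9.33 and 9.41. All ND arrays thus lay above all 8 other arrays, which spanned 9.28 to 9.72, and ND+EV overlapped with both HFD groups. Over the 20668 probe sets tested, 1.76% had all ND arrays above every other array. ND replicate 1, one of the arrays that stood apart, was the highest of all.

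Probe set 15310083 of VEGFA gave the same order for ND replicates 1 and 2 and not for ND replicate 3. Its log2 signals were 9.51, 9.20 and 8.90 in ND, and 8.91, 8.64 and 8.50 in ND+EV. They were 8.91 and 8.85 in HFD, and 9.02, 8.56 and 8.92 in HFD+EV. ND replicates 1 and 2 were the highest arrays here too, but ND replicate 3 lay inside the range of every other group. The group means were 9.20 ± 0.31 in ND, 8.68 ± 0.21 in ND+EV, 8.88 ± 0.04 in HFD and 8.83 ± 0.24 in HFD+EV (SD, n = 3, 3, 2 and 3). With 15310081 they were 10.09 ± 0.38, 9.44 ± 0.25, 9.60 ± 0.08 and 9.42 ± 0.09. In both probe sets ND came first and HFD second, and no neighbours in the order below ND differed beyond their ranges.

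**Figure D1:**
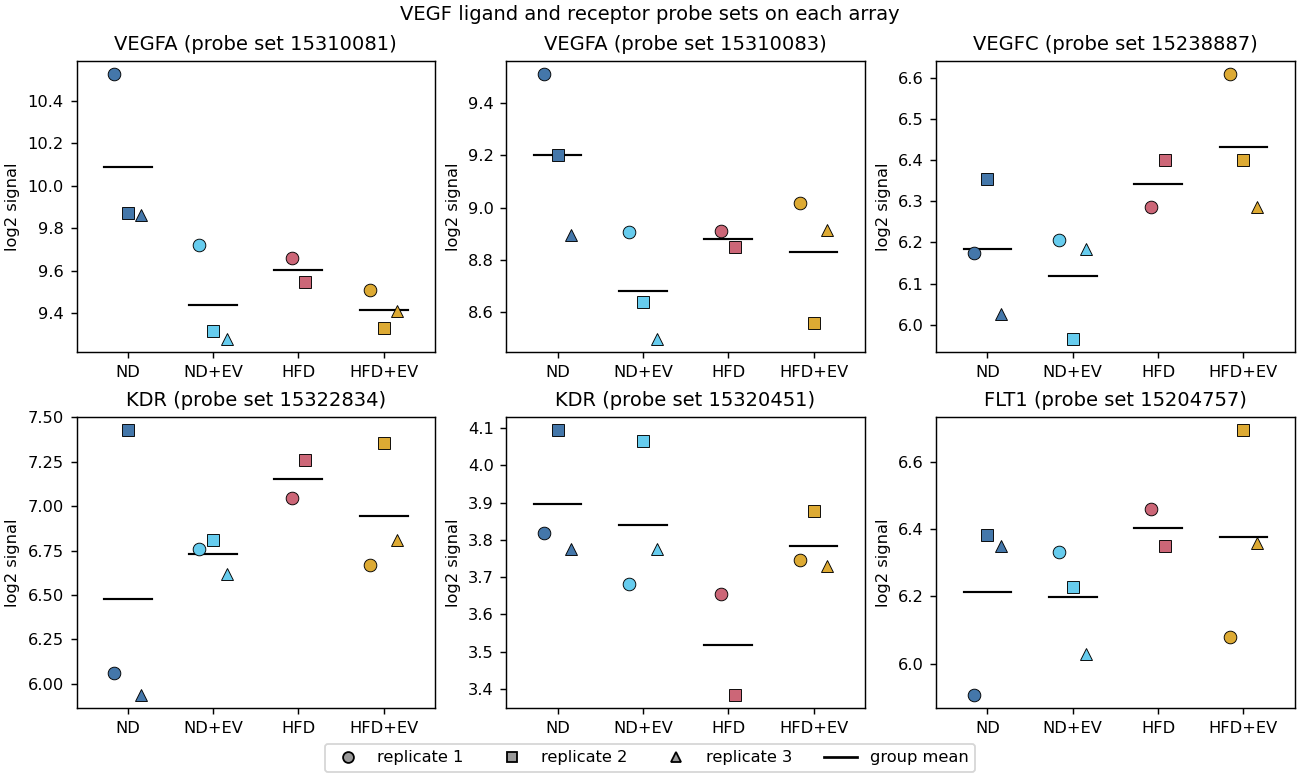
Log2 signal of the 6 probe sets (1 panel each) on each of the 11 arrays, by group, with the replicate number as the marker and the group mean as a line; the vertical scale differs between panels. VEGFA 15310081 shows all ND arrays at or above 9.86 and all others at or below 9.72, and KDR 15322834 shows ND replicate 2 at 7.43 far from ND replicates 1 and 3 at 6.06 and 5.94.

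Under the normal diet, EV hearts were compared with vehicle hearts. Both VEGFA probe sets were lower in ND+EV than in ND, and neither passed the threshold (limma, adjusted p under 0.05 over all probe sets tested). For 15310081 the log2 difference had a 95% interval of -1.07 to -0.23 (a fold of 1.57, unadjusted p = 0.00597, adjusted p = 0.548 by limma), and the groups did not overlap. It was -0.43 without ND replicate 1. For 15310083 it was -0.52 ± 0.18 (SE), with an interval of -0.93 to -0.12 (fold 1.44, unadjusted p = 0.0162, adjusted p = 0.548), and ND replicate 3 (8.90) lay just under ND+EV replicate 1 (8.91). In the list of all probe sets tested, 1.07% had a smaller p than the first and 2.93% than the second. VEGFC (-0.07 ± 0.13), FLT1 (-0.02 ± 0.18) and the 2 KDR probe sets (0.25 ± 0.34 for 15322834 and -0.06 ± 0.14 for 15320451) had intervals that spanned 0. By limma 0 of the 6 members passed, and 2 reached an unadjusted p under 0.05. These 2 belong to 1 gene, VEGFA, and varied together over the arrays (Pearson's r = 0.90), so they do not count as independent. The shares over the whole table were 0% past the threshold and 8.51% at that unadjusted p, with 3.54% on the lower side, where both VEGFA probe sets were. The groups did not overlap for 1 of 6, against 11.6% of all probe sets.

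Under the high fat diet no member differed between EV and vehicle at an unadjusted p under 0.05. VEGFA 15310081 was lower in HFD+EV than in HFD by -0.19 ± 0.21 (SE, interval -0.65 to 0.28), without overlap of the groups, and 15310083 was -0.05 ± 0.20. KDR 15320451 was higher in all HFD+EV arrays than in both HFD arrays (0.27 ± 0.16, limma unadjusted p = 0.127, adjusted p = 0.915), at 0.13 without HFD replicate 2 and 0.40 without HFD replicate 1, while KDR 15322834 was -0.21 ± 0.38. VEGFC (0.09 ± 0.15) and FLT1 (-0.03 ± 0.20) overlapped. By limma 0 of the 6 members passed and 0 reached an unadjusted p under 0.05, against 0% and 5.54% of all probe sets. The groups did not overlap for 2 of the 6, against 23.2% of all probe sets.

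Whether the EV effect on VEGFA differed between the diets was tested directly. The EV effect under the high fat diet minus that under the normal diet was 0.46 for 15310081, with an interval of -0.17 to 1.09 (limma unadjusted p = 0.134), and 0.47 ± 0.27 (SE) for 15310083, with an interval of -0.13 to 1.08 (unadjusted p = 0.114, adjusted p = 0.641). For 15310081 it was 0.24 without ND replicate 1, 0.25 without ND replicates 1 and 3 and 0.85 after cyclic loess normalization, and for 15310083 it was 0.32 without ND replicate 1 and 0.82 after cyclic loess. With 15310083, ND replicate 2 lay at the ND mean (both 9.20), so leaving out ND replicates 1 and 3 hardly moves its difference. Both intervals held 0 and also values as large as the EV effect under the normal diet. For the other probe sets the differences were 0.16 (VEGFC), -0.46 (KDR 15322834), 0.32 (KDR 15320451) and -0.01 (FLT1), and 0 of 6 passed, with 0 at an unadjusted p under 0.05, against 0% and 8.42% of all probe sets. The mean EV effect over both diets was -0.42 ± 0.14 for VEGFA 15310081 (interval -0.73 to -0.10, limma unadjusted p = 0.0139, adjusted p = 0.855) and -0.29 ± 0.14 for 15310083 (interval -0.59 to 0.02, adjusted p = 0.931). Here 0 of 6 passed and 1 had an unadjusted p under 0.05, against 0% and 5.42% of all probe sets. These contrasts share arrays with each other and are not independent.

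**Figure D2:**
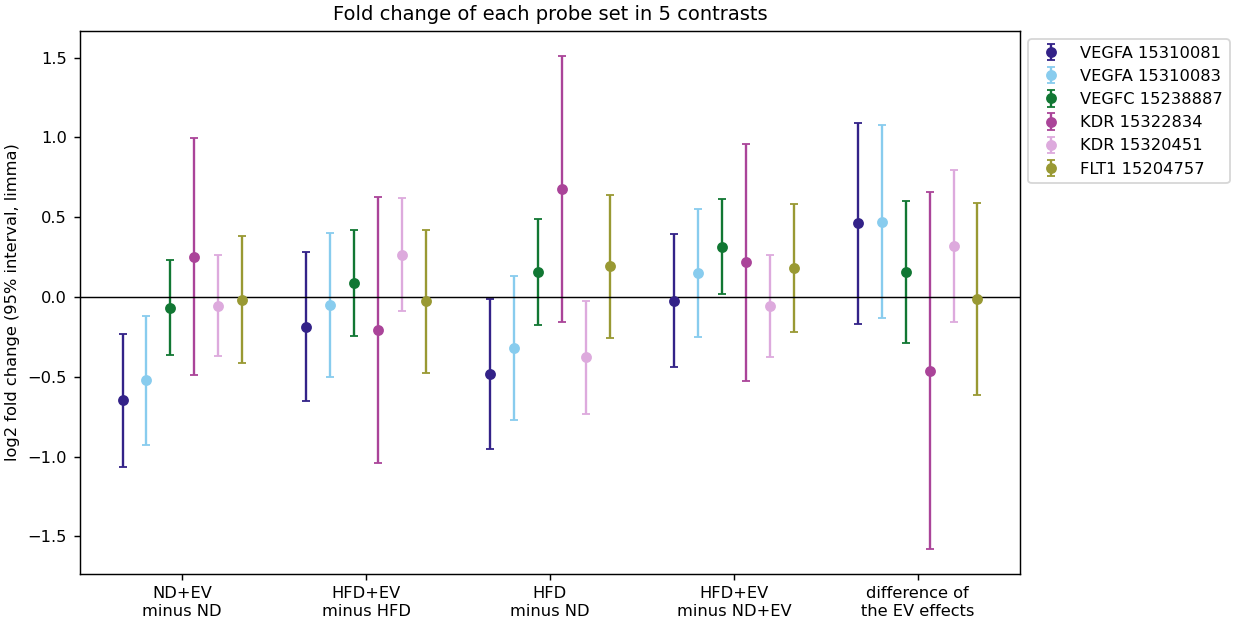
Log2 fold change of the 6 probe sets (colours) in 5 contrasts of the limma fit, with 95% intervals as bars. Both VEGFA intervals lie below 0 in ND+EV minus ND (-1.07 to -0.23 and -0.93 to -0.12), and the intervals of KDR 15322834 are the widest in every contrast.

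Among vehicle hearts, those of the high fat group also had less VEGFA signal than those of the normal diet group. For 15310081 HFD minus ND was -0.48 ± 0.21 (SE), with an interval of -0.95 to -0.02 (fold 1.40, limma unadjusted p = 0.0441, adjusted p = 0.196), and the groups did not overlap. For 15310083 it was -0.32 ± 0.20, with an interval of -0.77 to 0.13 (adjusted p = 0.359). Without ND replicate 1 the VEGFA values were -0.26 and -0.17. After cyclic loess normalization between the arrays they were -0.94 and -0.76 (adjusted p = 0.132 and 0.154, with a range over all alternatives of 0.0827 to 0.661 and 0.154 to 0.661). In HFD+EV against ND+EV the VEGFA probe sets pointed in opposite directions, at -0.02 ± 0.19 and 0.15 ± 0.18, with intervals of -0.44 to 0.40 and -0.25 to 0.55.

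VEGFC, the ligand of lymphatic growth, was highest in HFD+EV and lowest in ND+EV. Its log2 signals (probe set 15238887) were 6.61, 6.40 and 6.29 in HFD+EV and 6.40 and 6.29 in HFD. They were 6.17, 6.35 and 6.03 in ND, and 6.21, 5.96 and 6.18 in ND+EV. All HFD+EV arrays lay above all ND+EV arrays, and both vehicle groups overlapped with their neighbours. HFD+EV exceeded ND+EV by 0.31 ± 0.13 (SE), with an interval of 0.02 to 0.61 (fold 1.24, limma unadjusted p = 0.04, adjusted p = 0.657). The groups did not overlap on the higher side for 7.58% of all probe sets in this comparison. In vehicle hearts HFD minus ND was 0.16 ± 0.15 (interval -0.17 to 0.49), and the mean diet effect over both injections was 0.24 ± 0.10 (interval 0.01 to 0.46, unadjusted p = 0.0397, adjusted p = 0.183), at 0.11 after cyclic loess and 0.15 without ND replicates 1 and 3. The lymphatic endothelium markers measured, PROX1, CCL21 and FLT4 (3 of 5 listed), had a mean log2 signal of 4.99 to 5.13 in HFD, 4.65 to 4.83 in HFD+EV, 4.54 to 4.84 in ND and 4.52 to 4.70 in ND+EV, and their part in the VEGFC values was not tested. VEGFC had the smallest spread of the 6 within groups, with a residual SD of 0.15, which 76.6% of all probe sets exceeded.

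KDR, the main signalling receptor, was read differently by its 2 probe sets. With 15322834 the ND arrays had log2 signals of 6.06, 7.43 and 5.94, so that ND held both the highest array of all 11 and the lowest. The ND+EV arrays had 6.76, 6.81 and 6.62. The HFD arrays had 7.05 and 7.26, and the HFD+EV arrays 6.67, 7.35 and 6.81. The ND group spanned 1.49 log2 units, while ND+EV spanned 0.19, HFD 0.21 and HFD+EV 0.69. The low arrays, ND replicates 1 and 3, were the ones that stood apart over all probe sets. Only 6.16% of all probe sets had a larger residual SD than this probe set (0.49).

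The level of endothelial markers did not split the ND arrays in the same way. The mean log2 signal over the 10 measured blood vessel endothelium genes was 6.27, 6.63 and 6.73 on ND replicates 1, 2 and 3, so that ND replicate 3 had the lowest KDR 15322834 signal and the highest endothelial level of the 11 arrays. The endothelial level was 6.52, 6.28 and 6.55 in ND+EV, 6.47 and 6.72 in HFD, and 6.46, 6.69 and 6.67 in HFD+EV. The cardiomyocyte level was 10.42 on both ND replicates 1 and 3 and 10.55 or above on all other arrays. The fibroblast level (7 of 8 genes) was lowest on ND replicate 1 (7.24) and highest on HFD replicate 2 (8.94), and 7 of the 7 genes were higher in HFD than in ND. The atrial level (NPPA, MYL7, MYL4 and SLN, 4 of 4 genes) was 4.99, 5.57 and 6.05 in ND, 5.62, 5.87 and 5.81 in ND+EV, 6.04 and 7.23 in HFD, and 5.50, 5.44 and 5.59 in HFD+EV. HFD minus ND was above 0 for 4 of 4 atrial genes, with a median of 1.31 and 0 passed, but MYL4 was unchanged (0.0005). The mean signal of SLN (3.94) lay close to the filter. The fibroblast and atrial counts stand beside 47.5% of all probe sets that were higher in HFD than in ND. The pericyte and smooth muscle level (7 of 9 genes) was 5.91 to 6.59 in ND, 6.02 to 6.25 in ND+EV, 6.41 to 6.82 in HFD and 6.15 to 6.59 in HFD+EV. The part of these levels in the KDR and VEGFA values was not tested.

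With KDR probe set 15320451, whose signal lay close to the filter, HFD was the lowest group rather than the highest. Its HFD mean (3.52) was below the filter (3.63), so its lower HFD value rests on signal at that limit. Its log2 signals were 3.65 and 3.38 in HFD, 3.82, 4.10 and 3.78 in ND, 3.68, 4.07 and 3.78 in ND+EV, and 3.74, 3.88 and 3.73 in HFD+EV. Both HFD arrays lay below every other array, and the other 3 groups overlapped. Over all probe sets tested, 5.53% had both HFD arrays below every other array.

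The diet comparison in vehicle hearts therefore differed in sign between the KDR probe sets. HFD minus ND was 0.68 ± 0.38 (SE) for 15322834, with an interval of -0.16 to 1.51 (limma unadjusted p = 0.101, adjusted p = 0.296), and -0.38 ± 0.16 for 15320451, with an interval of -0.73 to -0.02 (unadjusted p = 0.0389, adjusted p = 0.185). The value for 15322834 turned on 1 array. Without ND replicate 2 it was 1.15 and passed (limma adjusted p = 0.0254, with a range of 0.0254 to 0.741 over the alternatives tried), in a fit in which 6.56% of all probe sets passed. Without ND replicates 1 and 3, which leaves ND replicate 2 as the only ND array, assumed to vary like the other groups, it was -0.27. The value for 15320451 was -0.24 without HFD replicate 2, its lowest array, -0.51 without HFD replicate 1 and -0.58 without ND replicates 1 and 3. For 15322834 in ND+EV minus ND, leaving out ND replicate 2, or replicates 1 and 3, gave 0.73 or -0.70, against 0.25 with all arrays. Under each injection the high fat arrays were higher than the normal-diet arrays by the mean for 15322834 (0.68 in vehicle and 0.22 ± 0.34 in EV hearts) and lower for 15320451 (-0.38 and -0.06 ± 0.14).

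FLT1, the trapping receptor, had the narrowest range of group means, 6.20 to 6.40. Its log2 signals (probe set 15204757) were 5.91, 6.38 and 6.35 in ND, and 6.33, 6.23 and 6.03 in ND+EV. They were 6.46 and 6.35 in HFD, and 6.08, 6.69 and 6.36 in HFD+EV. The lowest array was ND replicate 1 and the highest HFD+EV replicate 2, and the groups overlapped in each of the 4 pairwise comparisons. The EV effects were -0.02 (interval -0.42 to 0.38) under the normal diet and -0.03 (-0.47 to 0.42) under the high fat diet, and the diet effects were 0.19 (-0.26 to 0.64) in vehicle and 0.18 (-0.22 to 0.58) in EV hearts. Changes between -0.47 and 0.64 thus remain possible over these comparisons.

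Over the diet comparisons 0 of the 6 probe sets passed limma's test. In HFD minus ND 2 of 6 had an unadjusted p under 0.05, VEGFA 15310081 and KDR 15320451, both lower, and the groups did not overlap for these 2. Of all probe sets in that comparison 0.735% passed, 24% had an unadjusted p under 0.05 (10.4% on the lower side), and the groups did not overlap for 39.1% (19.7% on the lower side). The share of members at that level was therefore near the background. In HFD+EV minus ND+EV 1 of 6 had an unadjusted p under 0.05, VEGFC, against 0% passed and 7.36% at that p among all probe sets, and the groups did not overlap for 1 of 6, against 14.5%. In the mean diet effect 0 of 6 passed and 1 of 6, VEGFC, had an unadjusted p under 0.05, against 1.17% and 24.7% of all probe sets.

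Across the 11 arrays the 2 VEGFA probe sets varied together and the 2 KDR probe sets did not. For VEGFA Pearson's r was 0.90 (permutation p = 0.0004, adjusted over 15 pairs of probe sets 0.006) and Spearman's rho 0.74 (permutation p = 0.0133, adjusted 0.0997). Without ND replicates 1 and 2, the arrays farthest from the median, r was 0.70. Within groups, after each group mean was subtracted, r was 0.84. Without ND replicate 1 alone r was 0.79, and of the 15 pairs 0 passed. For KDR r was 0.03 (permutation p = 0.935, adjusted 0.962) and rho 0.07 (p = 0.83, adjusted 0.989). It was 0.10 without ND replicates 1 and 3, the farthest from the median, and 0.59 within groups. HFD replicate 2 was the lowest array with 15320451 (3.38) and among the highest with 15322834 (7.26).

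**Figure D3:**
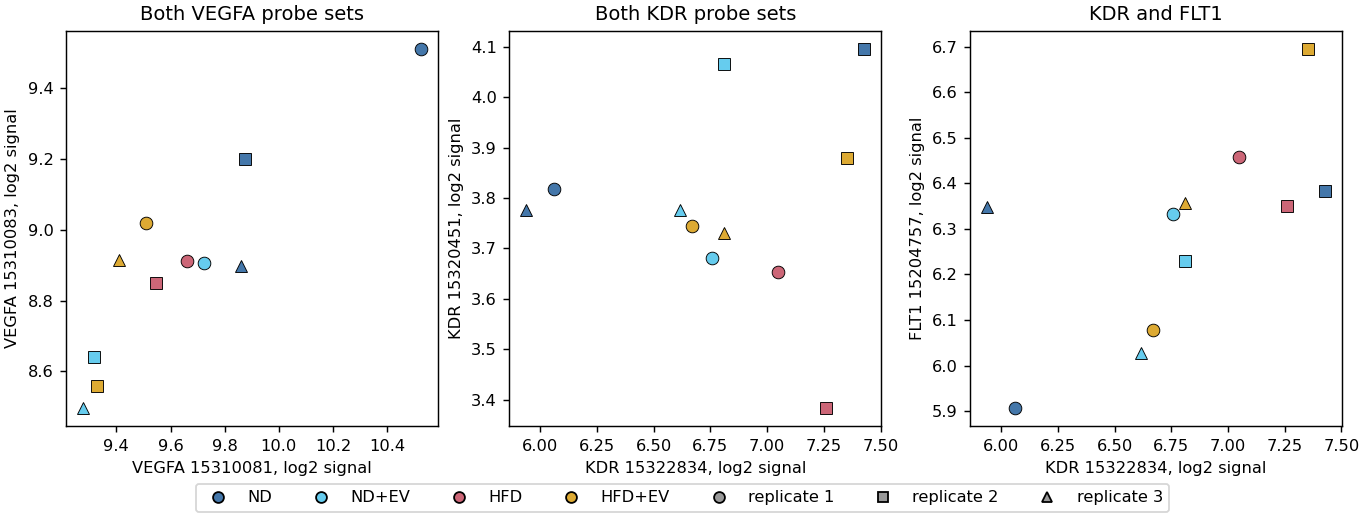
Log2 signal on each of the 11 arrays for 3 pairs of probe sets, with the group as colour and the replicate number as marker. The VEGFA pair lies along a rising line (r = 0.90) with ND replicate 1 at its upper end, the KDR pair shows no common trend (r = 0.03), and KDR 15322834 and FLT1 rise together (r = 0.63) except on ND replicate 3.

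Among pairs of different genes, the receptors KDR (15322834) and FLT1 had the largest r. It was 0.63 (permutation p = 0.0387, adjusted 0.29) with a rho of 0.77 (p = 0.00703, adjusted 0.0997), and did not pass. It was 0.76 without ND replicates 1 and 3, the arrays farthest from the median, 0.85 without ND replicate 3 alone, 0.55 within groups and 0.41 after cyclic loess. VEGFC and KDR 15322834 had an r of 0.50 (p = 0.113, adjusted 0.518) and a rho of 0.57 (p = 0.0745, adjusted 0.372). Their r was 0.93 without HFD+EV replicate 1 and ND+EV replicate 2, the arrays farthest from the median of VEGFC, and 0.25 after cyclic loess. VEGFA 15310081 and KDR 15322834, ligand and receptor, had an r of -0.48 (p = 0.138, adjusted 0.518) and a rho of -0.12 (p = 0.728, adjusted 0.989), an r of -0.47 without ND replicates 1 and 2, the farthest from the median, and of -0.14 without ND replicate 1 alone. No scan time or batch was given in the labels, so no relation was recomputed within batches.

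**Figure D4:**
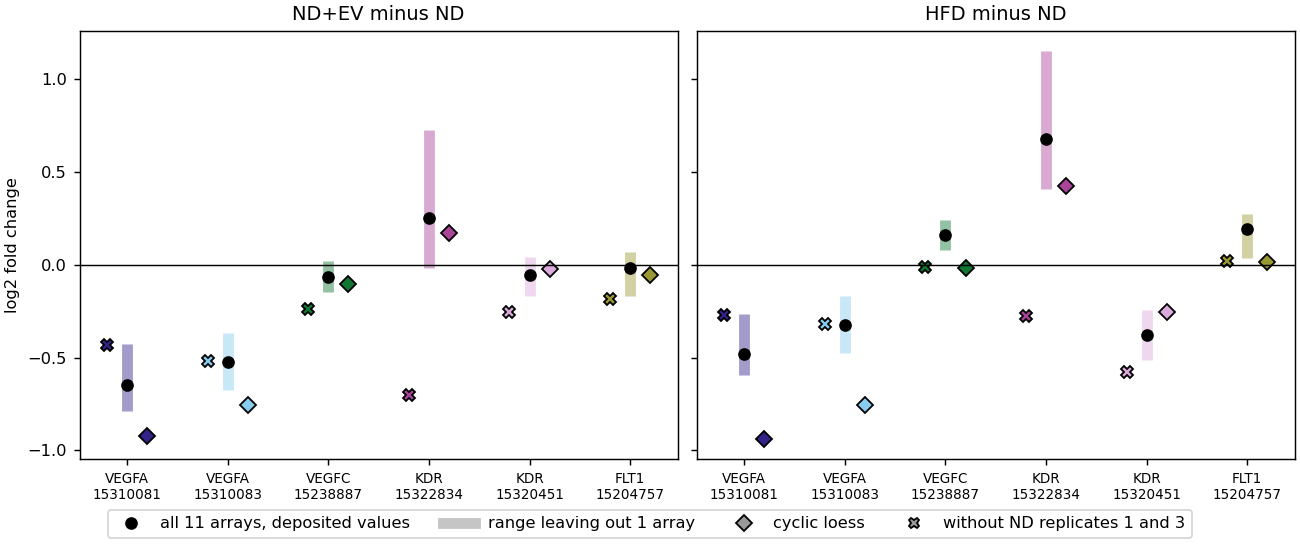
Log2 fold change of the 6 probe sets in ND+EV minus ND (left) and HFD minus ND (right), with all 11 arrays (black circles), over fits that leave out 1 array (bars), after cyclic loess (diamonds) and without ND replicates 1 and 3 (crosses). Both VEGFA probe sets stay below 0 throughout in both panels, while KDR 15322834 runs from -0.27 to 1.15 in HFD minus ND.

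The probe sets of other genes whose signal ran most like the members over the 11 arrays were found by Pearson's r among about 9864 named probe sets, as a description. NCK2, an adaptor protein that links receptors to the actin skeleton, ranked among the first 3 for both VEGFA probe sets (0.93 with 15310081 and 0.94 with 15310083). SRRM1, a splicing coactivator (0.94), and TEX13B (0.93) were the others for 15310081, and TTC31 (0.94) and MICAL3 (0.92) for 15310083. For KDR 15322834 they were NFYC, a subunit of the CCAAT-binding factor NF-Y (0.95), and both CHTOP probe sets (0.94), which held the same values. For KDR 15320451 they were the chemokine CCL11 (0.95), DEFB121 (0.92) and DZIP3 (0.90). The 2 KDR probe sets shared none of these genes, which adds little to the r of 0.03 between them. For VEGFC they were TMEM170A (0.88), ZNF384 (0.87) and DIAPH1 (0.86), and for FLT1 NDNF (0.91), IMP4 (0.89) and MGAT2 (0.89).

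Of the 6 other VEGF ligands and receptors listed, 4 had a named probe set and all 4 were tested. VEGFD, the second lymphatic ligand, had a log2 signal of 5.89 ± 0.35 in ND, 6.32 ± 0.31 in ND+EV, 5.95 ± 0.53 in HFD and 6.55 ± 0.30 in HFD+EV. It was the higher with EV under both diets, by 0.43 ± 0.25 and 0.60 ± 0.28 (SE), and by 0.52 ± 0.19 in the mean EV effect (limma unadjusted p = 0.0205, adjusted p = 0.866). FLT4, the receptor that VEGFC and VEGFD share, was lower with EV under both diets (3.93 ± 0.24 in ND, 3.57 ± 0.25 in ND+EV, 4.16 ± 0.13 in HFD and 3.85 ± 0.24 in HFD+EV), by -0.34 ± 0.13 in the mean EV effect (unadjusted p = 0.0282, adjusted p = 0.906). In the mean EV effect VEGFD was thus above 0 and FLT4 below, as VEGFA was, and none passed. The FLT4 signal lay close to the filter (mean 3.85 against 3.63), and its ND+EV mean was below it. PGF, a ligand of FLT1, had means from 4.47 in ND+EV to 4.76 in ND. NRP1, a co-receptor that holds VEGFA at KDR, was 8.07 ± 0.18 in ND, 7.81 ± 0.07 in ND+EV, 7.86 ± 0.15 in HFD and 8.01 ± 0.17 in HFD+EV. The ND+EV arrays of NRP1, at 7.74 to 7.88, lay below all ND arrays, at 7.95 to 8.27, and the difference was -0.25 ± 0.13 (limma unadjusted p = 0.0854, adjusted p = 0.628). Of all probe sets in that comparison, 11.6% did not overlap, 5.31% on the lower side.

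Genes downstream of the receptors, and hypoxia genes, were mostly higher in HFD than in ND, where VEGFA was lower, and none passed. Of 9 endothelial genes that VEGF is known to induce 7 were higher and 2 lower, with a median log2 fold change of 0.36, against 47.5% higher and a median of -0.02 over all probe sets. They included CXCR4, a chemokine receptor (0.81 ± 0.19, SE, limma adjusted p = 0.0632), DLL4, the Notch ligand of tip cells (0.72 ± 0.20, adjusted p = 0.0807), and RCAN1, an inhibitor of calcineurin (1.04 ± 0.35, adjusted p = 0.114). Of 21 hypoxia response genes 17 were higher and 4 lower (median 0.21), with LDHA, lactate dehydrogenase A (1.15 ± 0.31, adjusted p = 0.0775), HIF1A, the oxygen-regulated factor itself (0.93 ± 0.26, adjusted p = 0.0807), and EGLN1, which marks HIF proteins for breakdown (0.59 ± 0.15, adjusted p = 0.0733). In these 2 lists 3 and 5 genes were higher and 0 and 1 lower at an unadjusted p under 0.05, and 0 passed. Of all probe sets in this comparison, 13.6% were higher and 10.4% lower at that p. The mean level of the hypoxia genes was 5.57, 5.82 and 5.63 on the ND arrays and 5.93 and 5.98 on the HFD arrays. VEGFA, itself a gene that HIF induces, was highest on ND replicate 1, where the level of these genes was the lowest of the 11 arrays. That is 1 array, and it stood apart over all probe sets. The part of either list in the VEGFA values was not tested.

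Of 19 VEGF receptor signalling genes 14 were higher in HFD than in ND and 5 lower (median 0.20), and 0 passed. At an unadjusted p under 0.05, 2 were higher and 1 lower, against 13.6% and 10.4% of all probe sets. RASA1, which switches RAS off (0.66 ± 0.20, limma adjusted p = 0.0935), MAP2K1, the kinase above ERK (0.61 ± 0.21, adjusted p = 0.117), and NOS3, endothelial nitric oxide synthase (-0.57 ± 0.21, adjusted p = 0.136), had the smallest p. Of 10 genes that trap, process or regulate VEGF ligands 8 were higher (median 0.29), with SPARC, which binds VEGFA (0.69 ± 0.23, adjusted p = 0.11), MMP2 (0.92 ± 0.43) and THBS1 (0.88 ± 0.42), and 0 passed. Of 10 Notch and angiopoietin genes 7 were higher (median 0.36), among them DLL4, UNC5B (0.39 ± 0.18) and JAG1 (0.37 ± 0.19), and 0 passed. Both other settings for the lists were chosen after their values were seen. Without ND replicates 1 and 3, 3 of the 10 Notch and angiopoietin genes were higher in HFD (median -0.05), as were 13 of 19 signalling genes (0.08), 7 of 9 VEGF-induced genes (0.19), 14 of 21 hypoxia genes (0.18) and 8 of 10 trapping and processing genes (0.24). After cyclic loess the counts were 7 of 10 (median 0.19), 13 of 19 (0.06), 6 of 9 (0.34), 14 of 21 (0.27) and 6 of 10 (0.16), in the same order of lists.

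The same lists were read in the other comparisons. In HFD+EV minus ND+EV 16 of 21 hypoxia genes (median 0.16), 9 of 10 Notch and angiopoietin genes (0.21) and 7 of 9 VEGF-induced genes (0.12) were higher, and 10 of 19 signalling genes (0.002) and 6 of 10 trapping and processing genes (0.19), where 48.8% of all probe sets were higher. After cyclic loess 7 of the 19 signalling genes were higher (median -0.05). STC1, a hypoxia-induced glycoprotein (0.69 ± 0.19, limma adjusted p = 0.57), PFKFB4 (0.54 ± 0.20), ANGPT2, the destabilising TEK ligand (0.52 ± 0.17, adjusted p = 0.596), and ROBO4 (0.47 ± 0.17) had small p, and 0 genes of these lists passed. In ND+EV minus ND the hypoxia median was -0.006 (10 of 21 higher) and that of VEGF-induced genes -0.02 (4 of 9 higher), where 49.2% of all probe sets were higher. Without ND replicates 1 and 3, 5 of 21 hypoxia genes (median -0.09) and 4 of 9 VEGF-induced genes (-0.03) were higher. PFKFB4 (-0.58 ± 0.20, adjusted p = 0.548), SP1, a factor known to bind the VEGFA promoter (-0.41 ± 0.13, adjusted p = 0.548), STC1 (0.49 ± 0.19) and EGLN1 (0.34 ± 0.13) had the smallest p there, and 0 genes passed. In HFD+EV minus HFD 1 of 10 trapping and processing genes was higher (median -0.20) and 2 of 9 VEGF-induced genes (-0.10), where 49.6% of all probe sets were higher. Of the VEGF-induced genes, CXCR4 (-0.50 ± 0.19), ESM1 (-0.48 ± 0.20) and RCAN1 (-0.72 ± 0.35) were lower. Of the hypoxia genes 10 of 21 were higher (median -0.06). Among them STC1 was higher (0.87 ± 0.22, limma adjusted p = 0.564), and HK2 (-0.47 ± 0.16) and ENO1 (-0.76 ± 0.31) were lower. The mean signals of ESM1 (3.78) and HK2 (3.84) lay close to the filter, and 0 genes of these lists passed.

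**Figure D5:**
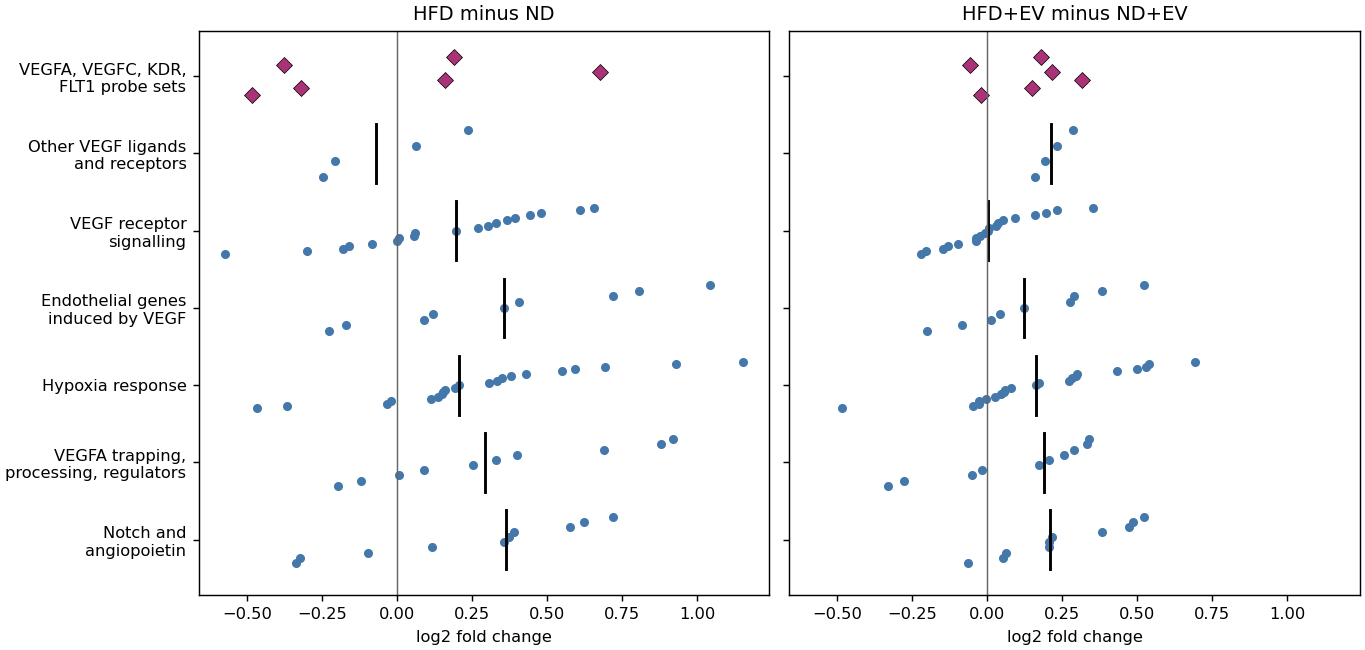
Log2 fold changes in HFD minus ND (left) and HFD+EV minus ND+EV (right) of the 6 member probe sets (diamonds) and of the genes of 6 lists (circles, 1 per gene, with the list median as a bar). In HFD minus ND both VEGFA probe sets lie at -0.48 and -0.32, while the medians of the VEGF-induced and hypoxia lists lie at 0.36 and 0.21.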

How the data were processed

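Each array (Affymetrix, whole transcript) took 50 ng of total RNA, per the labels' protocols. Values are the log2 signals that the authors deposited, made with Transcriptome Analysis Console per the submitters' processing notes. The sources used here give no normalization method, probe position, genome build or detection call, and coordinates are therefore not printed. Array medians ran from 4.36 to 4.48. The SD of the values on an array was 1.45 to 1.51 in ND and 1.50 to 1.54 in ND+EV. It was 1.59 and 1.62 in HFD and 1.51 to 1.60 in HFD+EV. The part of this difference in the fold changes was not tested beyond the cyclic loess alternative.

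Probe sets in the lowest 25% by mean signal were dropped. One mean per group was fitted over 11 arrays with limma 3.58.1 in R 4.3.3 (7 residual and 3.62 prior degrees of freedom), and p-values of the 7 contrasts (two-sided) were adjusted over 20668 probe sets by Benjamini-Hochberg. SE and 95% intervals are limma's. The script was tested on simulated data. The number of arrays limits the precision.

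Symbols came from the platform annotation (1 symbol for 13157 of 27558), and 12841 matched a current gene table. Each list gene stands for its probe set with the highest mean. The genes named were all members, all other VEGF ligands and receptors, and of each further list up to 3 with the smallest p in a contrast. Likeness took the 3 highest Pearson r. Permutation tests were two-sided with 100000 resamples. Members and lists were chosen with earlier results of these data known. The alternatives were other filters, cyclic loess, array weights, a moderated trend, fits of 2 groups, a replicate block and omitted arrays.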

Additional observations from a re-analysis of the deposited data

How the results depend on the processing

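With all arrays, 0 of 6 member probe sets passed in any of the 7 contrasts, and that held under each alternative run except without ND replicate 2, where KDR 15322834 passed in HFD minus ND and in the mean diet effect (0 to 1 probe sets in each, over fits that leave out 1 array). The count of correlated pairs past the threshold was 1, and 0 to 2 when 1 array was left out. KDR 15320451 has no value under the filter at 50%, which removes it. Both VEGFA probe sets kept their direction in every alternative of ND+EV minus ND (-0.92 to -0.43 and -0.76 to -0.37) and HFD minus ND. Many of these could not change it. Other filters, a moderated trend, fits of 2 groups and omitted arrays of other groups leave a log2 fold change as it is. So does the replicate block in ND+EV minus ND. After group means were subtracted, same-numbered arrays of different groups correlated above 0.1 in 5 of 15 pairs (highest 0.33). Other-numbered arrays did so in 5 of 30 (highest 0.19). A shared effect of the number is thus not excluded. No label says that the numbers pair animals, so the main fit holds no pairing. With the replicate block 0 members passed, and VEGFA 15310081 was -0.65 in ND+EV minus ND, as in the main fit. Over all probe sets the calls in HFD minus ND were 152, against 0 without a filter, after cyclic loess, with array weights, a moderated trend or the groups of the contrast alone. They were 214 with the filter at 50%, 938 with the replicate block and 0 to 1356 when 1 array was left out. In the mean diet effect the calls were 242, against 0 without a filter, after cyclic loess or with a moderated trend. They were 463 with the filter at 50%, 985 with the block, 1665 with array weights and 0 to 1399 when 1 array was left out. The cause was not tested.

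No member difference passed with all arrays, so every sign that turned belonged to a difference that had not passed there. KDR 15322834 in HFD minus ND passed without ND replicate 2 and turned without ND replicates 1 and 3. Without ND replicates 1 and 3, KDR 15322834 was -0.70 in ND+EV minus ND, -0.27 in HFD minus ND, 0.49 in the difference of the EV effects, -0.45 in the mean EV effect and -0.029 in the mean diet effect, VEGFC was -0.011 in HFD minus ND and -0.073 in the mean EV effect, and FLT1 was 0.16 in the difference. With array weights, KDR 15322834 was -0.027 in ND+EV minus ND and -0.062 in the mean EV effect, VEGFC -0.031 in the mean EV effect, and FLT1 0.079 in HFD+EV minus HFD, 0.13 in the difference and 0.017 in the mean EV effect. After cyclic loess, VEGFA 15310083 was 0.062 and FLT1 0.031 in HFD+EV minus HFD, VEGFC -0.016 in HFD minus ND and FLT1 0.088 in the difference. With the replicate block VEGFA 15310083 was 0.018 in HFD+EV minus HFD. When 1 array was left out, ranges that crossed 0 in ND+EV minus ND were -0.15 to 0.018 (VEGFC), -0.016 to 0.73 (KDR 15322834), -0.17 to 0.044 (KDR 15320451) and -0.17 to 0.069 (FLT1). In HFD+EV minus HFD they were -0.14 to 0.086 (VEGFA 15310083) and -0.19 to 0.12 (FLT1). In HFD+EV minus ND+EV they were -0.10 to 0.12 (VEGFA 15310081) and -0.14 to 0.056 (KDR 15320451). In the difference FLT1 ran from -0.17 to 0.14. In the mean EV effect they were -0.033 to 0.054 (VEGFC), -0.11 to 0.26 (KDR 15322834) and -0.10 to 0.053 (FLT1). The cause was not tested.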
